A study of Mus musculus with 50 samples.

Results

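The genes described here encode subunits of neurotransmitter receptors. These are the membrane proteins through which neurons, and for some subunits muscle, respond to glutamate, GABA, glycine, acetylcholine, serotonin, dopamine and noradrenaline. The genes were taken by name, with earlier results of these data known. They are those whose only symbol in the array's annotation begins with Gria, Grin, Grik, Grid, Grm, Gabr, Gabbr, Glra, Glrb, Chrn, Chrm, Htr, Drd, Adra or Adrb. A digit had to follow where the stem alone would take in other genes. This gave 52 genes in 13 families out of 8252 genes with 1 symbol on the array, and 41 of the 52 were bright enough to be tested. A gene is represented by its brightest probe set over the 50 arrays, the probe set being the group of short probes that together measure 1 transcript.

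The study asked how gene expression differs in the brains of mice that lack S1P2 or S1P3, receptors for the signalling lipid sphingosine 1-phosphate. Mice lacking S1P2 had seizures now and then between 4 and 7 weeks of age, and mice lacking S1P3 did not. All mice were 8 weeks old. RNA of the neocortex and of the hippocampus was hybridised to 1 Affymetrix array per sample, from wild-type mice (10 samples per tissue, 5 male and 5 female), S1P2-KO mice (10 per tissue, 5 male and 5 female) and S1P3-KO mice (5 per tissue, 2 male and 3 female). The labels name the knockouts only as S1P2-KO and S1P3-KO, and give neither the alleles nor the strain, so what the 3 genotypes share beyond age and tissue is not given in the sources used here. Replicates are called biological in the sample titles.

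Fast excitation in the forebrain is carried by ion channels opened by glutamate, the AMPA, NMDA and kainate receptors, and fast inhibition by chloride channels opened by GABA, the GABA-A receptors. Each channel is built from several subunits, and which subunits a neuron makes sets how long its channels stay open and which drugs act on them. Receptors for monoamines and acetylcholine, and the metabotropic glutamate and GABA-B receptors, mostly act through G proteins and tune that fast signalling.

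Values are the deposited MAS5 signals on a linear scale, and differences are between means of log2(signal + 30.7), which understates the change of dim genes. Signals of different probe sets are not compared with each other. A difference was called at an adjusted p under 0.05 in limma. The tissue labels went with their markers. In wild-type hippocampus 7 of 7 tested neocortex markers were lower than in wild-type neocortex, with medians of their summed signal of 10010 and 29760. Of 5 tested hippocampus markers, 4 were higher. The marker lists were chosen with earlier results of these data known, so they are not an independent check of the labels. In the knockouts, S1pr2 was not called in S1P2-KO tissue, and S1pr3 was not called in S1P3-KO tissue (smallest limma adjusted p = 0.164, for S1pr3 in hippocampus, with a signal of 495 ± 42.7, SD, n = 5, against 827 ± 204, n = 10). Where these probes lie relative to the deleted part is not given in the sources used here, so they check the genotype labels only if they lie inside it. The 3' to 5' control ratio, which rises when RNA is degraded or copied incompletely, was between 0.01 and 0.75 (log2) on 47 arrays and above 1 on 3 hippocampus arrays: wild-type replicate 4 at 1.2, S1P2-KO replicate 7 at 1.37 and S1P3-KO replicate 5 at 4.46. Where leaving out 1 or all of them changed a call or moved a named value by over 1.5 times, this is stated. The second value is mostly that without 1 array. For Grik2 and Htr1a only the change of call is given.

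Within wild-type mice, 10 of the 41 receptor genes differed between hippocampus and neocortex. The hippocampus had more RNA of the serotonin receptor gene Htr5b, the AMPA receptor gene Gria1, the GABA-A receptor gene Gabrb1 and the adrenergic receptor gene Adra2c. The neocortex had more of the GABA-A receptor genes Gabrd, Gabra3 and Gabrb2, of the adrenergic receptor gene Adra1b, the metabotropic glutamate receptor gene Grm8 and the glycine receptor gene Glrb. The members called made up 24.4% of those tested, against 14.6% of all 8534 probe sets (1243 called), with 4 of 41 higher against a background of 7.83% and 6 of 41 lower against 6.74%. The median difference of the 41 genes was -0.03, against 0.006 over all probe sets, so the genes differed in both directions around no common shift. In tissue RNA, fewer cells of a type and less RNA per cell cannot be told apart.

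**Figure D1:**
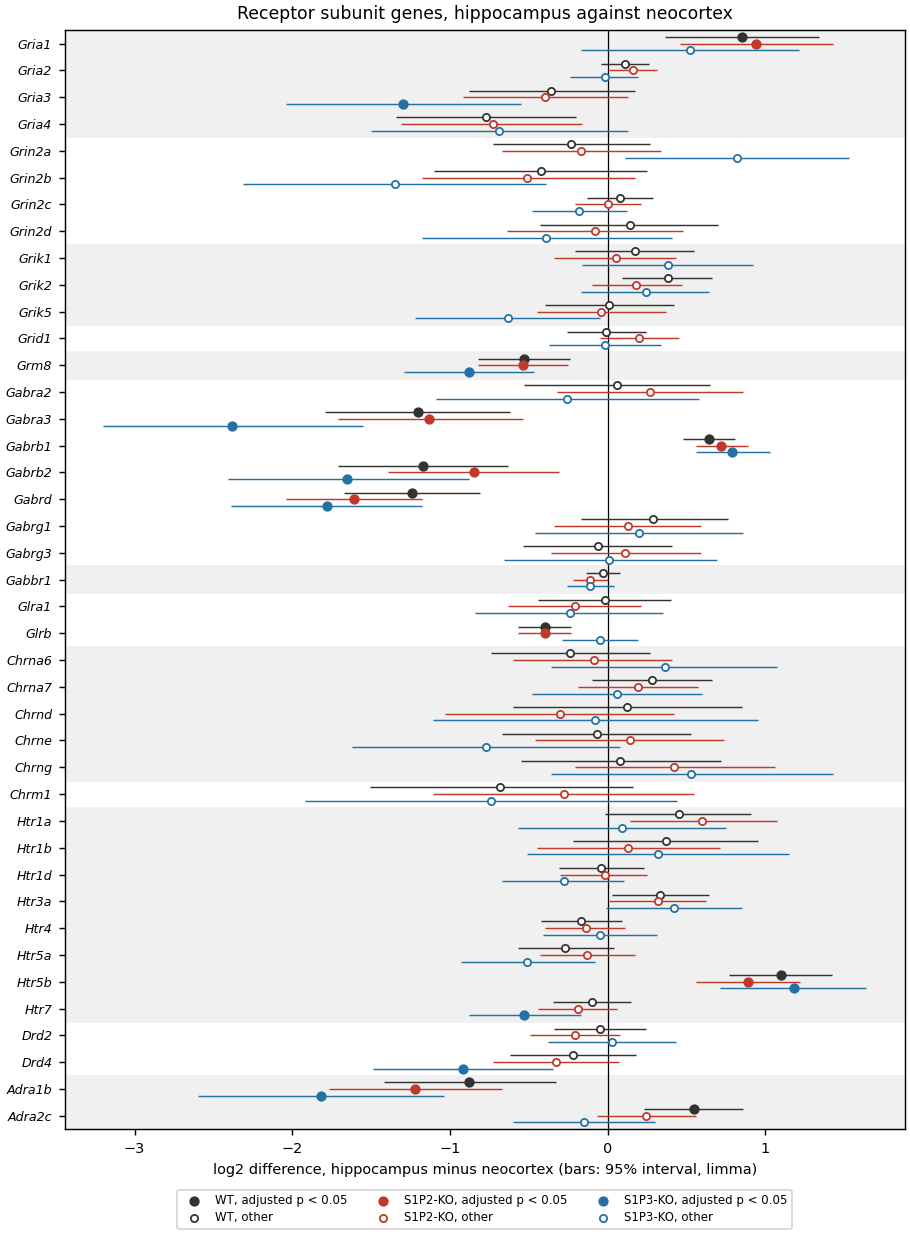
Log2 difference of each of the 41 tested receptor genes between hippocampus and neocortex (x axis, hippocampus minus neocortex, bars are 95% intervals from limma), by family, in wild-type (black), S1P2-KO (red) and S1P3-KO mice (blue), with filled points at an adjusted p under 0.05. Gabrb1 and Htr5b lie above 0 and Gabrd, Gabra3, Gabrb2, Adra1b and Grm8 below 0 with filled points in all 3 genotypes.

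Among the AMPA receptor subunits, Gria1, whose product is inserted at hippocampal synapses during potentiation, was the one called in the wild-type comparison. Its signal in wild-type neocortex ranged from 1810 to 3607 with a median of 2444, and in wild-type hippocampus from 1874 to 9897 with a median of 3995. The groups overlapped: 6 of 10 hippocampus arrays lay above every neocortex array, and the other 4 lay within the neocortex range. The difference was 0.85 ± 0.24 (SE, limma adjusted p = 0.0105), and 1.23 ± 0.37 with the gene's dimmer probe set (adjusted p = 0.0152). Gria2, the subunit that makes AMPA receptors nearly impermeable to calcium, was not called with its brightest probe set, whose name marks probes that may match several transcripts (0.11 ± 0.07, adjusted p = 0.377) but was called with its second brightest (0.43 ± 0.10, adjusted p = 0.00156), so its probe sets disagree on the call. Gria3 and Gria4, the remaining AMPA subunits, gave differences of -0.36 ± 0.26 and -0.77 ± 0.28 that were not called (adjusted p = 0.417 and 0.0603).

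None of the 4 NMDA receptor subunits was called between wild-type tissues. Grin2a, which speeds the decay of NMDA currents in mature synapses, differed by -0.23 ± 0.25, and Grin2b, which slows it and dominates early in life, by -0.42 ± 0.34. Grin2c and Grin2d, subunits best known from cerebellum and from interneurons, differed by 0.08 ± 0.10 and 0.14 ± 0.28. The kainate receptor subunits Grik1, Grik2 and Grik5 were not called with their brightest probe sets, Grik2 missing the threshold at 0.38 ± 0.14 (adjusted p = 0.0658). Its second probe set was called at 0.53 ± 0.15 (adjusted p = 0.00812), and its brightest was called once the 3 arrays with a high 3' to 5' ratio were left out. Grid1, a delta receptor subunit that binds synaptic organisers of the cerebellin family, differed by -0.01 ± 0.12. Grm8, a presynaptic receptor that lowers glutamate release, was lower in hippocampus: its signal ran from 281 to 660 with a median of 481 in neocortex and from 191 to 504 with a median of 289 in hippocampus. Of the hippocampus arrays, 9 of 10 lay below the neocortex median and 4 lay below every neocortex array, a difference of -0.53 ± 0.14 (limma adjusted p = 0.00661).

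GABA-A receptors, 1 of 13 families, gave 4 called genes among 7 tested, 1 higher and 3 lower in wild-type hippocampus. Over all probe sets 14.6% were called, 7.83% higher and 6.74% lower. Families were not tested as sets. Gabrb1, a beta subunit that helps form the GABA binding site, had the smallest limma adjusted p of the 41 tested genes. Its signal was 4767 to 7143 (median 5947) in wild-type neocortex and 7253 to 11397 (median 9083) in wild-type hippocampus, with no overlap, and the difference was 0.64 ± 0.08 (limma adjusted p = 2.86e-08). Gabrb2, a second beta subunit and in many brain regions the most abundant one, went the other way, with 298 to 959 (median 630) in neocortex and 87.3 to 687 (median 258) in hippocampus. For Gabrb2, 8 of 10 hippocampus arrays lay below every neocortex array, and the difference was -1.17 ± 0.27 (limma adjusted p = 0.0011).

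Gabra3, an alpha subunit found at many cortical synapses and in monoamine neurons, had signals of 170 to 512 (median 323) in wild-type neocortex and 20 to 309 (median 175) in wild-type hippocampus. All 10 hippocampus arrays lay below the neocortex median, 5 of them below every neocortex array, and the difference was -1.20 ± 0.29 (limma adjusted p = 0.00202). Gabrd, the delta subunit of receptors outside synapses that give a steady inhibitory current, was 616 to 961 (median 758) in neocortex and 187 to 502 (median 295) in hippocampus. The Gabrd groups did not overlap, and the difference was -1.24 ± 0.21 (limma adjusted p = 1.52e-05). Gabra2, Gabrg1 and Gabrg3 gave differences between -0.06 and 0.29 and were not called. Gabbr1, a subunit of the G protein coupled GABA-B receptor, differed by -0.03 ± 0.05, with a 95% interval of -0.14 to 0.08. The glycine receptor subunit Glrb, which anchors the channel to the scaffold protein gephyrin, had signals of 7618 to 9937 (median 9016) in neocortex and 5415 to 7741 (median 6660) in hippocampus. On 8 of 10 hippocampus arrays it lay below every neocortex array, a difference of -0.40 ± 0.08 (limma adjusted p = 0.000376). Its alpha partner Glra1 did not pass the test (-0.02 ± 0.21).

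The 250 bases before the RefSeq start of Gabrb1, Gabrb2 and Gabra3 (build GRCm38.p6) are shown because these subunits of 1 receptor family were called in opposite directions between the tissues. Gabrb1 lies on the plus strand at chr5:71657671-71657920, Gabrb2 on the plus strand at chr11:42420190-42420439, and Gabra3 on the minus strand at chrX:72656920-72657169. Capitals mark the letters of a TATA box (TATAAA) or a GC box (GGGCGG), searched on both strands. They are printed 5′ to 3′ along the gene.
Gabrb1: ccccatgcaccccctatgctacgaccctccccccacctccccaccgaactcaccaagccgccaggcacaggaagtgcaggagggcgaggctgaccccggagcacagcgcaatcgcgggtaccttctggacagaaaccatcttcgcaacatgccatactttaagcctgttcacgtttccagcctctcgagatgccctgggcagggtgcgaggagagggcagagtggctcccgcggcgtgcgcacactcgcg
Gabrb2: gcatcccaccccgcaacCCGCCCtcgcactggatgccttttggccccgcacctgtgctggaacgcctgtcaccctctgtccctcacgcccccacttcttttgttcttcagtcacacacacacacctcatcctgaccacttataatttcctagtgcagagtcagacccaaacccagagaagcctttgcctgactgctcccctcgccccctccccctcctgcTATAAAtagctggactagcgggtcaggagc
Gabra3: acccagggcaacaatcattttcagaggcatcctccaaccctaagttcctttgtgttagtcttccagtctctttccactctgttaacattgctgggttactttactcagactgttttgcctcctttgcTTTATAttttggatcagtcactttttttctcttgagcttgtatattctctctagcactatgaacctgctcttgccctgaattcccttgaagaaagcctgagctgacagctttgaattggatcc
The Gabrb2 window holds 1 GC box and 1 TATA box and is 58.8% G and C. The Gabra3 window holds 1 TATA box, on the opposite strand, and is 42.4% G and C. The Gabrb1 window holds neither and is 64.4% G and C. These genes have 3, 2 and 2 starts in the table for Gabrb2, Gabra3 and Gabrb1, and only 1 is shown for each. Over the 46 promoters in the table that belong to 38 of the 52 receptor genes, 39.1% hold the GC box and 8.7% the TATA box, against 32.7% and 12.4% of all 32851 promoters of this length. The full cyclic AMP response element TGACGTCA is in 0 of the 46 and in 1.55% of all. Any receptor gene promoters on 1 of the chromosomes were left out of the 46 and kept among the 32851. A match here describes letters, and no binding was measured.

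Several of these genes are neighbours on the chromosome, by the order of protein coding genes in RefSeq. Gria2 and Glrb lie side by side, with tissue differences of 0.11 and -0.40. Gabrb1 is separated from Gabra2 by 2 other genes, and Gabra2 adjoins Gabrg1, yet of these 3 only Gabrb1 was called (0.64, 0.06 and 0.29). Gria1 is separated from Glra1 by 1 gene, with differences of 0.85 and -0.02.

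Limma called 0 of the 5 tested nicotinic acetylcholine receptor subunits between wild-type tissues, and 0 had an unadjusted p under 0.05. The 5 were Chrna6, Chrna7, Chrnd, Chrne and Chrng, so the absence of calls is not a result about neuronal subunits alone. Chrng is a subunit of fetal muscle, and Chrnd and Chrng were dim, with mean levels (the mean log2 turned back into a signal) of 138.9 and 174.4. The muscarinic receptor Chrm1, a main target of acetylcholine on cortical pyramidal cells, was likewise not called and had no unadjusted p under 0.05. Over all probe sets 14.6% were called and 26.5% had such a p. Chrna7, which forms a calcium permeable channel from identical subunits, differed by 0.28 ± 0.19. Chrm1 had the widest error of the 41 genes in this comparison (-0.68 ± 0.41), with hippocampus signals that ran from 64.2 to 1781.

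Htr5b was the 1 serotonin receptor gene called among 8 tested in wild-type mice, where 14.6% of all probe sets were called. It encodes a G protein coupled receptor that rodents have and that is lost as a working gene in humans. Its signal was 92.0 to 334 (median 235) in neocortex and 351 to 752 (median 521) in hippocampus, with no overlap and a difference of 1.10 ± 0.16 (limma adjusted p = 8.81e-07). Htr1a, an inhibitory receptor abundant on hippocampal pyramidal cells, gave 0.45 ± 0.23 and was not called (adjusted p = 0.214), though it was called once the 3 arrays with a high 3' to 5' ratio were left out. Htr3a, the serotonin gated ion channel of some interneurons, gave 0.33 ± 0.15 (adjusted p = 0.137), and Htr7, Htr4, Htr5a, Htr1b and Htr1d gave values between -0.27 and 0.37.

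The dopamine receptors Drd2 and Drd4 were not called between wild-type tissues (-0.05 ± 0.14 and -0.22 ± 0.20). Both adrenergic receptor genes were called, in opposite directions, where 14.6% of all probe sets were called. Adra1b, which couples to the calcium releasing G protein pathway, had signals of 227 to 402 (median 332) in neocortex and 83.7 to 304 (median 144) in hippocampus, a difference of -0.88 ± 0.27 (limma adjusted p = 0.0212). Adra2c, which inhibits adenylyl cyclase and noradrenaline release, had signals of 703 to 1149 (median 946) in neocortex and 1102 to 1730 (median 1405) in hippocampus, a difference of 0.55 ± 0.16 (limma adjusted p = 0.0112). For both genes all 10 hippocampus arrays lay on the same side of the neocortex median, and 8 of the 10 lay outside the neocortex range.

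The groups of wild-type arrays did not overlap for 3 of the 41 genes, Gabrb1 and Htr5b above and Gabrd below, against 3.59% of all probe sets. Leaving out any 1 of the 20 wild-type arrays changed none of the 10 calls, and the number called lay between 10 and 11. Without wild-type replicate 4 of the hippocampus and the other 2 arrays with a high 3' to 5' ratio, 12 genes were called, the additional ones being Grik2 and Htr1a. Choroid plexus markers varied widely among wild-type hippocampus arrays, their summed signal (4 genes) running from 3651 to 45830 against 4305 to 8009 in neocortex, and 3 of 4 striatum markers were lower in hippocampus. Of 9 interneuron markers 3 were lower and 1 higher, with a summed signal of 54180 to 62240 in hippocampus and 57130 to 68640 in neocortex. Of 7 neuron markers 2 were lower (69080 to 82130 against 83290 to 99500), and of 7 astrocyte markers 2 were higher (36430 to 43110 against 33570 to 39640). Thalamus markers had 2 lower and 1 higher of 5, and oligodendrocyte markers 1 higher of 5. The part of these cell types and regions in the tissue differences was not tested.

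The same tissue comparison in the knockouts rests on separate arrays. In S1P2-KO mice 9 genes were called (background 14.7%), 3 higher (7.62%) and 6 lower (7.09%). All 9 were among the wild-type calls with the same direction, which is 100% of the S1P2-KO list and 90.0% of the wild-type list. The missing gene was Adra2c, at 0.24 ± 0.16 against 0.55 in wild-type. The sharing of these lists was not counted over all probe sets. Gabrb1 ran from 4682 to 7229 (median 5935) in S1P2-KO neocortex and from 8541 to 11810 (median 9839) in hippocampus, a difference of 0.72 ± 0.08 (limma adjusted p = 1.27e-09). Gabrd, 511 to 938 (median 682) in neocortex and 75.4 to 399 (median 210) in hippocampus, differed by -1.61 ± 0.21 (limma adjusted p = 5.96e-08). Htr5b, 134 to 374 (median 307) in neocortex and 404 to 630 (median 509) in hippocampus, differed by 0.89 ± 0.16 (limma adjusted p = 4.64e-05). These 3 were again the genes whose groups did not overlap, against 3.45% of all probe sets. Gria1 gave 0.94 ± 0.24 (adjusted p = 0.00409), with 9 of 10 hippocampus arrays above every neocortex array. Gabrb2 at -0.85 ± 0.27 (adjusted p = 0.023) was the call that depended on single arrays: it was lost without S1P2-KO hippocampus replicate 7 (-0.71, adjusted p = 0.0699) or without neocortex replicate 9 or 10 (-0.77 for each, adjusted p = 0.0528 and 0.0524).

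In S1P3-KO mice, with 5 arrays per tissue, 10 genes were called (background 12.0%), 2 higher (5.99%) and 8 lower (6.0%). Gabra3 had the largest difference of any receptor gene in any of the 3 genotypes: its neocortex signals were 327, 450, 508, 471 and 347 and its hippocampus signals 33.5, 177, 125, 27.9 and 13.6. The groups did not overlap, and the difference was -2.38 ± 0.41 (limma adjusted p = 3.12e-05). Adra1b was 261, 298, 366, 491 and 451 in neocortex and 47.8, 128, 25.5, 218 and 77.4 in hippocampus, also without overlap (-1.82 ± 0.39, adjusted p = 0.000715). Gabrb1 was 5592, 4860, 6852, 6421 and 5805 in neocortex and 10492, 9100, 9469, 9303 and 13665 in hippocampus. Its lowest hippocampus array stood clear of its highest neocortex array, at a difference of 0.79 ± 0.12 (limma adjusted p = 1.36e-06). Gabrd was 771, 381, 771, 853 and 815 in neocortex and 96.7, 212, 423, 294 and 62.9 in hippocampus (-1.78 ± 0.30, adjusted p = 2.06e-05), with 1 neocortex array, replicate 2, inside the hippocampus range. Htr5b was 172, 174, 316, 151 and 314 in neocortex and 492.6, 724, 422, 470 and 530 in hippocampus, again without overlap (1.18 ± 0.23, adjusted p = 0.000238). Gabrb2 was 498, 861, 956, 712 and 473 in neocortex and 301, 271, 300, 59.4 and 156 in hippocampus (-1.65 ± 0.38, adjusted p = 0.00186). Grm8 was 485, 642, 476, 475 and 492 in neocortex and 307, 268, 157, 323 and 313 in hippocampus (-0.88 ± 0.20, adjusted p = 0.00196). The tissues did not overlap for 6 of the 41 genes in S1P3-KO mice, which are Gabrb1, Htr5b, Gabrb2, Grm8, Gabra3 and Adra1b, against 6.73% of all probe sets. Glrb and Gria1, called in both other genotypes, gave -0.05 ± 0.12 and 0.52 ± 0.34 here.

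**Figure D2:**
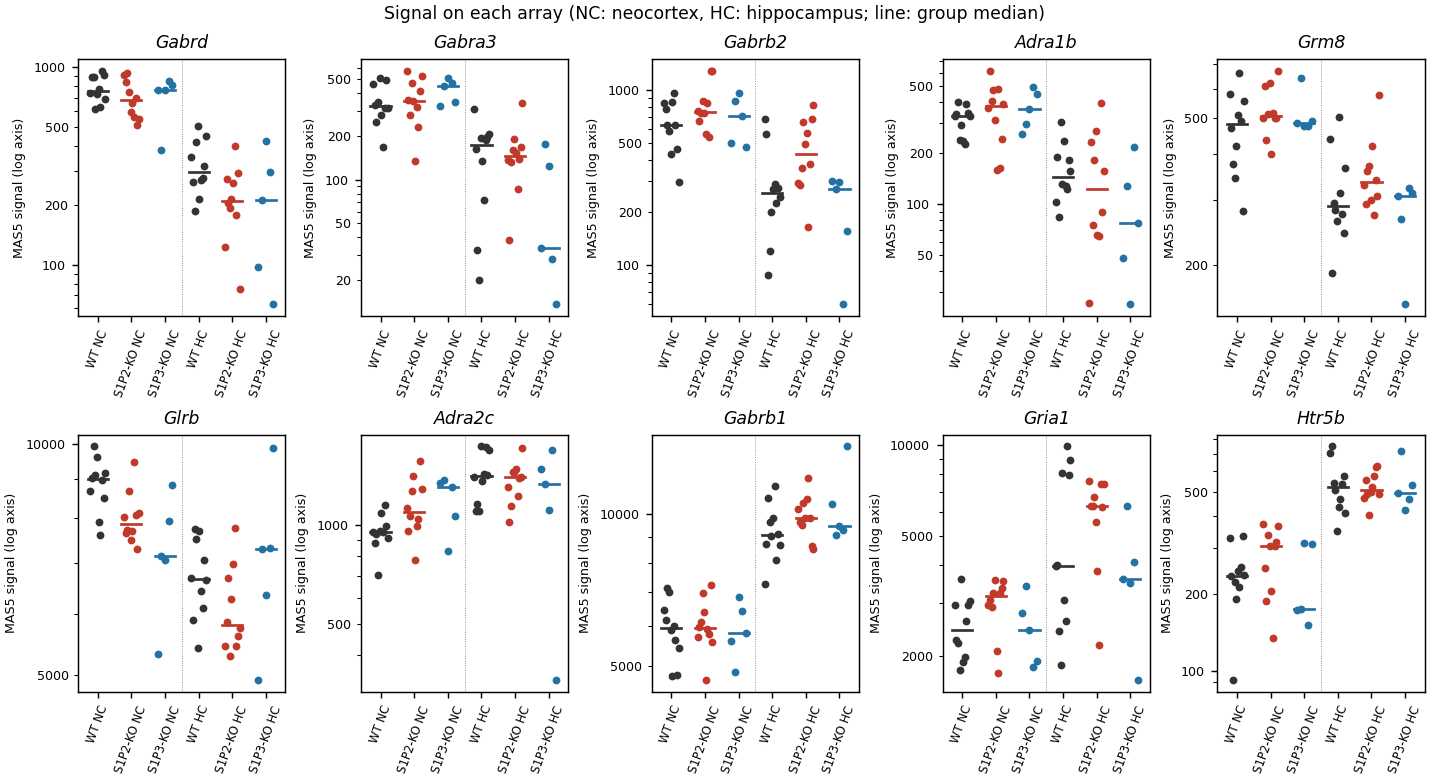
MAS5 signal (y axis, log scale) of the 10 genes called between wild-type tissues, 1 point per array, with a line at the group median, in neocortex (NC) and hippocampus (HC) of wild-type (black), S1P2-KO (red) and S1P3-KO (blue) mice. Every one of the 25 hippocampus points of Gabrb1 lies above every one of its 25 neocortex points, while Gria1 spreads widely within each hippocampus group.

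Across genotypes, 7 genes were called in all 3 tissue comparisons with the same direction: Gabrb1 and Htr5b higher in hippocampus, and Gabrd, Gabra3, Gabrb2, Adra1b and Grm8 lower. In all, 13 genes were called in at least 1. The lists of wild-type and S1P3-KO mice share 7 genes, 70% of each. How many of all probe sets were called in more than 1 genotype was not counted, so these counts have no background beside them. Over all 25 hippocampus against all 25 neocortex arrays, Gabrb1 was the only one of the 41 genes without overlap, against 1.57% of all probe sets, with a lowest hippocampus signal of 7253 and a highest neocortex signal of 7229.

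Gria3, Drd4 and Htr7, named after their values were seen, were called in S1P3-KO mice alone among the genotypes. Gria3, an AMPA receptor subunit encoded on the X chromosome, was 1346, 890, 1591, 1400 and 1101 in S1P3-KO neocortex and 1097, 1035, 842, 555 and 21.2 in hippocampus. The difference of -1.30 ± 0.37 (limma adjusted p = 0.0137) rested on replicate 5 of the hippocampus, the array with a 3' to 5' ratio of 4.46: without it the value was -0.53 (adjusted p = 0.0899). Drd4, a dopamine receptor of the D2 class, had a difference of -0.92 ± 0.28 (adjusted p = 0.0238), which became -0.54 (adjusted p = 0.215) without that array and was also lost without hippocampus replicate 2 (-0.83) or neocortex replicate 1 or 2 (-0.85 and -0.79). Htr7, a serotonin receptor that raises cyclic AMP, had -0.53 ± 0.18 (adjusted p = 0.0401), lost without hippocampus replicate 1 or 5 (-0.32 and -0.41) or neocortex replicate 2, 3 or 4 (-0.39, -0.53 and -0.54). Without hippocampus replicate 5 the S1P3-KO comparison called 7 genes, and these were the 7 called in all 3 genotypes. Fitted on the 10 S1P3-KO arrays alone, 5 genes were called, Adra1b, Gabra3, Gabrb1, Gabrb2 and Htr5b. In that fit Gabrd (-1.76, adjusted p = 0.0509) and Grm8 (-0.87, adjusted p = 0.0715) missed the threshold.

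Tests of the difference between genotypes in this tissue effect called 0 receptor genes. For S1P2-KO against wild-type, limma gave 0 calls and 0 genes at an unadjusted p under 0.05 (2.6% of all probe sets). For S1P3-KO against wild-type it gave 0 calls and 6 genes at an unadjusted p under 0.05 (5.13% of all probe sets). Those 6, named after their values were seen, were Gabra3 (-1.17 ± 0.50), Gria3 (-0.94 ± 0.45), Drd4 (-0.70 ± 0.35), Adra2c (-0.69 ± 0.27), Glrb (0.35 ± 0.15) and Grin2a (1.04 ± 0.43), each at a limma adjusted p of 0.875. Without S1P3-KO hippocampus replicate 5 these values were -0.90 for Gabra3, -0.17 for Gria3, -0.32 for Drd4, -0.30 for Adra2c, 0.24 for Glrb and 0.93 for Grin2a. The calls in 1 genotype and not in another are therefore not shown to differ between genotypes.

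No receptor gene was called in either knockout against wild-type in either tissue. All 4 knockout comparisons use the wild-type arrays of their tissue, so both knockouts share their controls, and their values stand side by side below. In neocortex the limma fit called 0 of 41 genes for S1P2-KO (background 0.0% of 8534 probe sets) and 0 for S1P3-KO (background 0.0%). At an unadjusted p under 0.05 there were 4 receptor genes for S1P2-KO against 8.74% of all probe sets, 4 higher (background 4.49%) and 0 lower (4.25%). For S1P3-KO there were 5 against 10.5%, 3 higher (5.33%) and 2 lower (5.16%). In hippocampus the fit called 0 for S1P2-KO (background 0.0%) and 0 for S1P3-KO (background 0.0352%, 3 probe sets). At an unadjusted p under 0.05 there were 2 receptor genes for S1P2-KO against 5.54%, 2 higher (2.4%) and 0 lower (3.14%), and 3 for S1P3-KO against 9.54%, 1 higher (4.58%) and 2 lower (4.96%). Among the lists of cell type markers, 1 gene was called in these comparisons, the astrocyte marker Gfap in S1P3-KO hippocampus (0.84 ± 0.14, limma adjusted p = 0.0273).

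The precision of these comparisons differs. The 95% interval of the S1P2-KO difference lay within 0.5 log2 either side of 0 for 25 of 41 genes in neocortex and 17 in hippocampus, and within 1 log2 for 39 and 36. For S1P3-KO it lay within 0.5 for 13 and 9 genes and within 1 for 34 and 27. A change of 1 log2 in either direction lay outside the interval for most genes, and a change of 0.5 lay inside it for many.

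**Figure D3:**
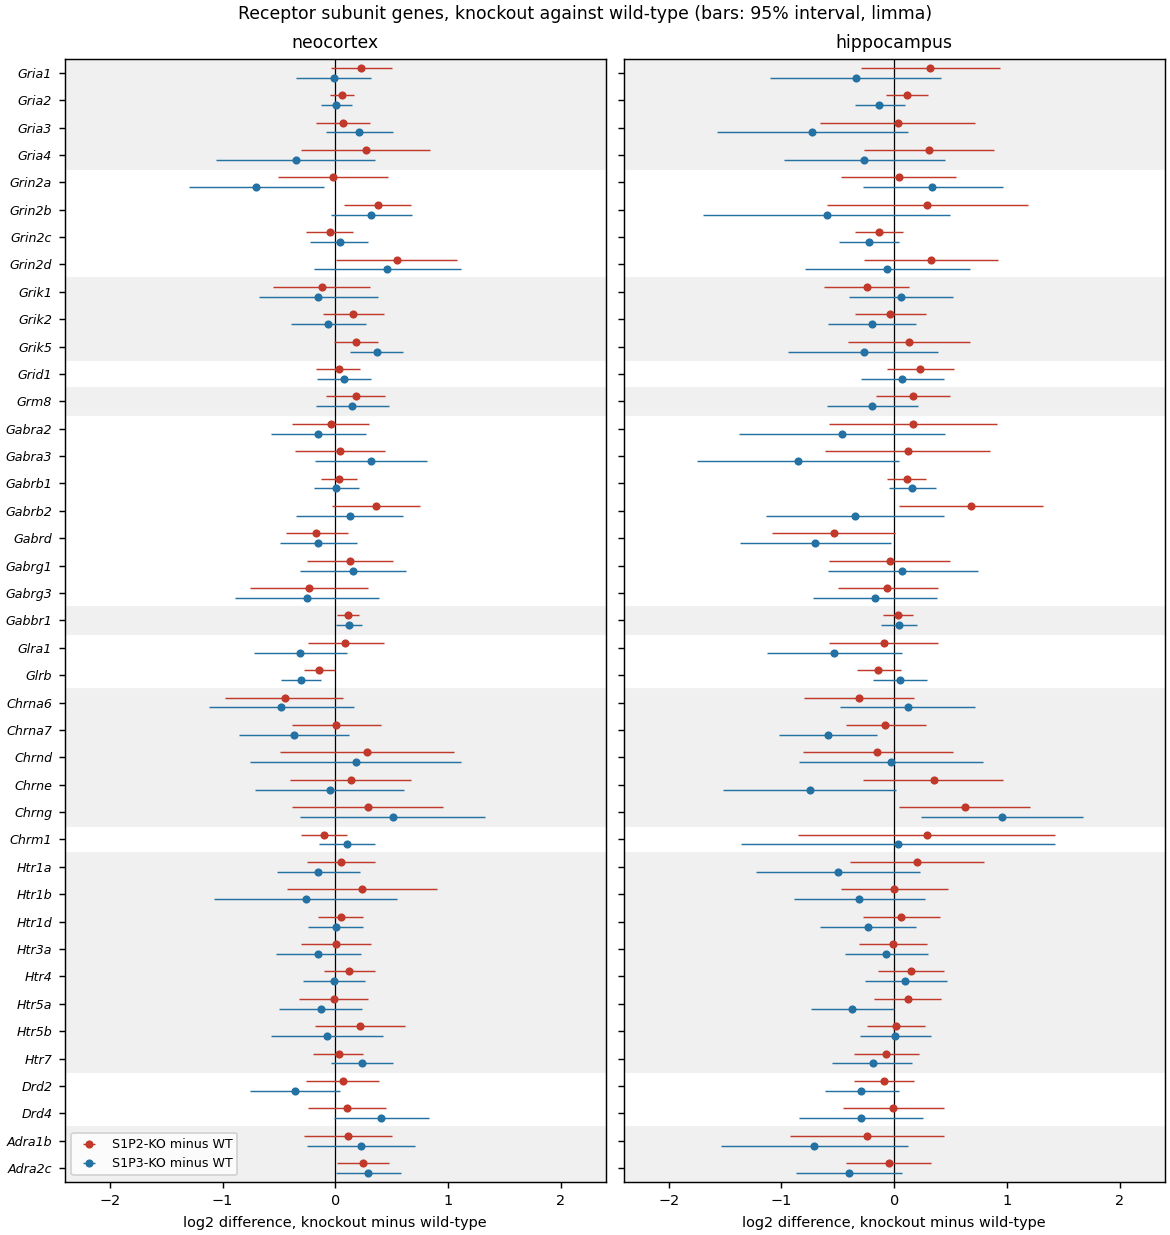
Log2 difference of each of the 41 tested receptor genes between knockout and wild-type (x axis, bars are 95% intervals from limma) in neocortex and hippocampus, for S1P2-KO (red) and S1P3-KO (blue). No gene reached an adjusted p under 0.05, and intervals are widest for S1P3-KO hippocampus.

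In S1P2-KO neocortex 31 of 41 genes had estimates above 0, with a median of 0.07, against 48.4% and a median of -0.006 over all probe sets. All 4 AMPA receptor genes and 7 of 8 serotonin receptor genes were on that side, and none of them passed the test. The 3' to 5' control ratio of these arrays was 0.01 to 0.61 (log2, median 0.26), against 0.30 to 0.48 (median 0.38) in wild-type neocortex. The arrays with the lowest ratios, replicates 9 and 10, had median deviations of the 41 genes of 0.13 and 0.19, and 3 of the 10 arrays had one below 0. The part of the ratio in this shift was not tested. The smallest p belonged to Grin2b, the slow NMDA receptor subunit. Its signal was 684 to 1225 (median 866) in wild-type neocortex and 627 to 1633 (median 1269) in S1P2-KO neocortex. In 8 of 10 knockout arrays it lay above the wild-type median, in 5 above every wild-type array and in 1 below all of them, for a difference of 0.38 ± 0.14 (limma p = 0.0134, adjusted p = 0.399). Gabbr1 lay above the wild-type median in all 10 S1P2-KO arrays, 13491 to 15352 (median 14208) against 11959 to 14267 (median 13335), though the difference was small, 0.11 ± 0.05 (limma adjusted p = 0.448). Adra2c differed by 0.25 ± 0.11 and Grin2d by 0.55 ± 0.26 (limma adjusted p = 0.499 and 0.545). Glrb was the fifth by p and the one below 0, at -0.14 ± 0.07 (adjusted p = 0.578).

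In S1P3-KO neocortex 21 of 41 estimates were above 0 and the median was 0.01. Glrb had the smallest p: its signals were 5319, 7148, 7065, 7947 and 8859 in S1P3-KO neocortex against 7618 to 9937 (median 9016) in wild-type. All 5 knockout arrays lay below the wild-type median and 3 below every wild-type array, a difference of -0.30 ± 0.09 (limma p = 0.00141, adjusted p = 0.189). Without S1P3-KO replicate 1, the lowest array, it was -0.19. Grik5, a kainate receptor subunit with high affinity for glutamate, was 4252, 3776, 3776, 4153 and 5314 against 2404 to 4448 (median 3319), with all 5 above the wild-type median and 1 above every wild-type array (0.37 ± 0.12, limma adjusted p = 0.24). Grin2a was 86.9, 380, 307, 121 and 66.8 in S1P3-KO neocortex against 115 to 471 (median 296) in wild-type, so that 2 knockout arrays lay below the wild-type range and 2 above its median (-0.70 ± 0.29, limma adjusted p = 0.407). Gabbr1 (0.12 ± 0.06) and Adra2c (0.29 ± 0.14) completed the 5 smallest p, with limma adjusted p of 0.448 and 0.449. Gabbr1 was 0.19 without S1P3-KO replicate 2. Both stood at 0.11 and 0.25 in S1P2-KO neocortex.

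**Figure D4:**
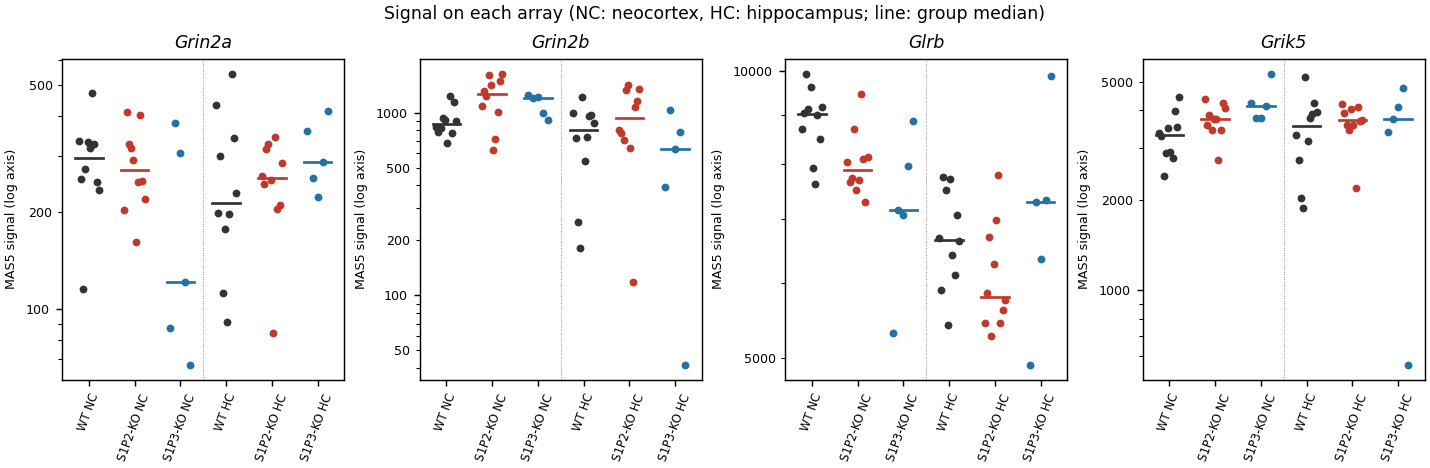
MAS5 signal (y axis, log scale) of Grin2a, Grin2b, Glrb and Grik5 on each array, with a line at the group median, in neocortex (NC) and hippocampus (HC) of wild-type (black), S1P2-KO (red) and S1P3-KO (blue) mice. Knockout and wild-type points overlap in every panel and tissue, and the lowest Grin2b and Grik5 points are S1P3-KO hippocampus replicate 5, at 41.5 and 561.

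In S1P2-KO hippocampus 24 of 41 estimates were above 0 and the median was 0.03. Gabrb2 differed by 0.68 ± 0.31, from 87.3 to 687 (median 258) in wild-type to 165 to 824 (median 433) in S1P2-KO. On 9 of 10 knockout arrays it lay above the wild-type median, but 1 array alone exceeded the wild-type range (limma adjusted p = 0.884). Gabrd, the extrasynaptic subunit, was under the median of wild-type in 9 of the 10 S1P2-KO samples, 75.4 to 399 (median 210) against 187 to 502 (median 295), and differed by -0.53 ± 0.26 (limma adjusted p = 0.89). Chrng, a nicotinic subunit of fetal muscle, differed by 0.63 ± 0.28 (adjusted p = 0.884) at signals near the lower end of those tested, 116 to 411 against 51.1 to 385. The gene's dimmer probe set, too dim to be tested, lay the other way, at 121.5 ± 66.7 (SD, n = 10) in S1P2-KO and 157.6 ± 77.8 (n = 10) in wild-type. Grid1 (0.23 ± 0.14, and 0.14 without wild-type replicate 3) and Glrb (-0.14 ± 0.10) followed by p.

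In S1P3-KO hippocampus 29 of 41 estimates were below 0 and the median was -0.22, against -0.013 over all probe sets. That shift moved with 1 array. Replicate 5 of this group, with the 3' to 5' ratio of 4.46, had a median deviation of the 41 genes of -0.67 from the wild-type median, while replicates 1 to 4 gave -0.03, 0.08, -0.15 and 0.03, inside the wild-type range of -0.22 to 0.17. Without replicate 5 the median was -0.04 and 16 of 41 estimates were above 0. Wild-type replicate 4 and S1P2-KO replicate 7, the other arrays with a ratio above 1, had the lowest medians of their groups, -0.22 and -0.19. The median over all probe sets deviated by at most 0.035 on any array. The part of RNA quality in these estimates was not tested.

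**Figure D5:**
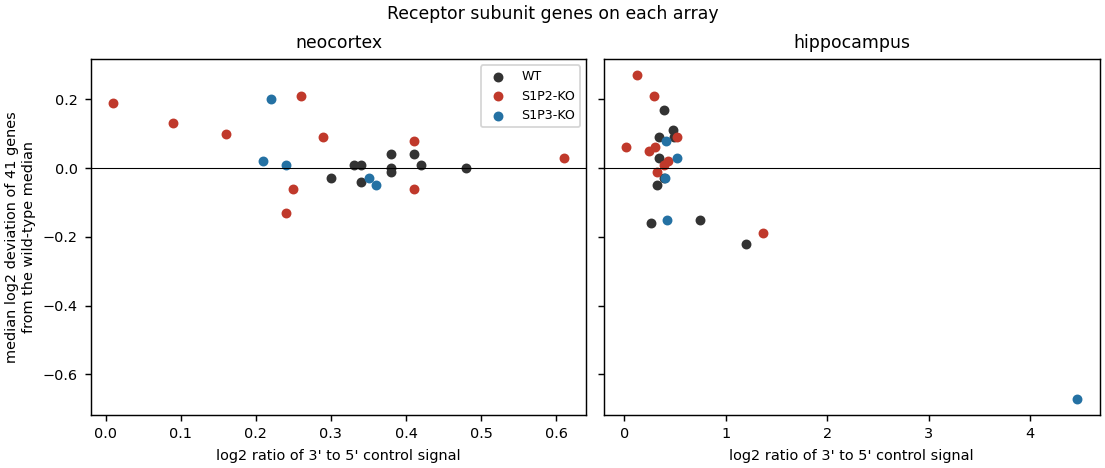
Median log2 deviation of the 41 receptor genes on each array from the wild-type median of its tissue (y axis) against that array's 3' to 5' control ratio in log2 (x axis), for neocortex and hippocampus, coloured by genotype. In hippocampus the array at a ratio of 4.46 stands at -0.67, and the other 24 arrays lie between -0.22 and 0.27.

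By p, the leading genes of S1P3-KO hippocampus were Chrna7 and Chrng. Chrna7 was 672, 675, 634, 315 and 336 in S1P3-KO hippocampus against 455 to 1054 (median 788) in wild-type, with all 5 below the wild-type median and 2 below every wild-type array (-0.59 ± 0.21, limma adjusted p = 0.397). Chrng was 242, 372, 462, 274 and 182 against 51.1 to 385 (median 135), with all 5 above the median and 1 above the range (0.96 ± 0.35, limma adjusted p = 0.397). In S1P2-KO hippocampus Chrna7 stood at -0.08 ± 0.17 and Chrng at 0.63 ± 0.28. Gabrd (-0.70 ± 0.32), Htr5a (-0.37 ± 0.18) and Chrne (-0.75 ± 0.37) followed, with limma adjusted p between 0.497 and 0.53. Without replicate 5 Gabrd stood at -0.40 and Chrne at -0.43, and without replicate 1 Htr5a stood at -0.59, none of them called. Without all 3 arrays with a high 3' to 5' ratio, Gabrd and Chrne each stood at -0.34. The other probe sets of Chrne were too dim to be tested. In S1P3-KO hippocampus they read 72.7 ± 14.3 and 30.8 ± 14.9 (SD, n = 5), against 88.9 ± 47.3 and 36.9 ± 12.8 (n = 10) in wild-type. The brightest read 346 ± 199 against 590 ± 320, so the Chrne value rests on 1 probe set.

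Groups of knockout and wild-type arrays overlapped for all 41 genes in each of the 4 comparisons. Over all probe sets 0.0117% did not overlap in S1P2-KO neocortex, 0.281% in S1P3-KO neocortex, 0.0% in S1P2-KO hippocampus and 0.164% in S1P3-KO hippocampus. The direct comparison of S1P2-KO with S1P3-KO called 0 receptor genes in limma in either tissue (background 0.0% in both), with 2 at an unadjusted p under 0.05 in neocortex (5.93% of all) and 6 in hippocampus (11.5%). Each of them was higher in S1P2-KO, against 3.11% higher and 2.82% lower over all probe sets in neocortex and 5.77% and 5.74% in hippocampus. Without S1P3-KO hippocampus replicate 5 the median S1P2-KO minus S1P3-KO difference in hippocampus was 0.05 rather than 0.26. Between the sexes limma called 0 receptor genes in neocortex and 0 in hippocampus (background 0.0586% in both), with 1 and 0 at an unadjusted p under 0.05 (6.15% and 5.13% of all). The 1 gene was Grin2c, higher in females by 0.23 ± 0.09, where 2.84% of probe sets were higher and 3.32% lower. In hippocampus those shares were 2.28% and 2.85%.

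Pairs of subunits of 1 receptor type were also compared as a log2 difference within each array, which cancels a shift common to both genes. The NMDA receptor pair Grin2b minus Grin2a was 1.02 ± 0.40 (SE) higher in S1P3-KO than in wild-type neocortex (two-sided exact permutation p = 0.0153, adjusted over 8 tests p = 0.123). It was 0.40 ± 0.21 higher in S1P2-KO neocortex (two-sided permutation p = 0.0737, adjusted p = 0.295). In hippocampus the same pair differed by 0.25 ± 0.44 in S1P2-KO and by -0.95 ± 0.86 in S1P3-KO, and the permutation tests gave p = 0.59 and 0.23. Single arrays moved both values: the S1P3-KO value was -0.19 without S1P3-KO replicate 5. The S1P2-KO value was 0.58 without S1P2-KO replicate 7, 0.39 without wild-type replicate 5, and between 0.07 and 0.16 without wild-type replicate 3 or 4 or S1P2-KO replicate 6. Without S1P3-KO neocortex replicate 2, the array with the highest Grin2a of its group, the S1P3-KO value was 1.27 with an adjusted exact permutation p of 0.048, so it passed the threshold without that array and missed it with it. The AMPA receptor pair Gria1 minus Gria2 differed by 0.17 ± 0.14 in S1P2-KO and -0.04 ± 0.19 in S1P3-KO neocortex, and by 0.21 ± 0.27 and -0.21 ± 0.33 in hippocampus, with permutation p of 0.222, 0.842, 0.428 and 0.569. Averaged over all probe sets of each gene, the S1P2-KO neocortex value of that pair was 0.38 with an adjusted permutation p of 0.0416. Without the 3 hippocampus arrays with a high 3' to 5' ratio, its S1P3-KO hippocampus value was -0.1. Grin2b minus Grin2a was then 0.49 in S1P2-KO and -0.28 in S1P3-KO hippocampus.

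Genes that work with these receptors were counted from lists of partners, to be read against the 7.83% of all probe sets called higher and 6.74% called lower between wild-type tissues. Among 19 tested partners of glutamate receptors, such as scaffold and trafficking proteins, 4 were higher and 4 lower in wild-type hippocampus than neocortex, including Homer3 (1.70 ± 0.14), a scaffold of metabotropic receptors, and Camk2b (0.72 ± 0.06), a subunit of the calcium dependent kinase of the synapse. Of 11 partners of GABA and glycine receptors, 1 was higher, Gphn (0.28 ± 0.10), which encodes gephyrin, and 1 lower, Slc12a5 (-0.84 ± 0.22), the chloride exporter of mature neurons. Of 7 genes for glutamate synthesis and transport 2 were higher, Slc1a1 (0.59 ± 0.08) and Glud1 (0.29 ± 0.09). Of 22 genes of G protein signalling 1 was higher, Rgs14 (0.83 ± 0.10), and 5 lower, among them Kcnj9 (-0.95 ± 0.15), a potassium channel opened by G proteins. Limma called 0 of 4 genes for GABA synthesis and transport and 0 of 7 for acetylcholine and monoamine handling. In each list 1 gene had an unadjusted p under 0.05, against 26.5% of all probe sets. In S1P2-KO and S1P3-KO against wild-type limma called 0 genes of these 6 lists in either tissue. The 19 glutamate receptor partners had 6 and 4 genes at an unadjusted p under 0.05 in S1P2-KO and S1P3-KO neocortex, with medians of 0.15 and 0.13, where 8.74% and 10.5% of all probe sets had such a p. The 22 G protein signalling genes had 6 and 6, with medians of 0.02 and -0.03.

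The 11 receptor genes that were too dim for the tests were Chrnb2, Gabrr2, Htr2c, Chrm4, Htr2b, Gabra6, Chrna1, Drd3, Htr1f, Gabrr1 and Chrnb1. The dimmest tested gene, Chrnd, had a mean level of 138.9 (the mean log2 turned back into a signal) and the brightest untested one, Chrnb2, a mean level of 88.9. Fitted without the brightness filter, 0 of these 11 were called by limma in any of the 13 comparisons. The smallest adjusted p was 0.072, for Htr2c, a serotonin receptor abundant in choroid plexus, between wild-type tissues. Its signals were 10.1 to 129 (median 63.0) in neocortex and 25.7 to 255 (median 128) in hippocampus. In that comparison 1 of the 11 genes had an unadjusted p under 0.05, against 26.5% of the 8534 probe sets past the filter.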

How the data were processed

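Total RNA of neocortex and hippocampus was hybridised as biotin labelled cRNA to 1 array per sample, per the labels' protocols. The authors deposited a linear MAS5 intensity per probe set, scaled per array, per the submitters' processing notes; the MAS5 version is not given in the sources used here. On every array the mean after trimming 2% at each end was 1000.56 to 1000.66, and the median signal was 299.6 to 413.8. No pair of arrays exceeded a Spearman correlation of 0.97. MAS5 gives each array its own background, so signals near it are noisy.

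The deposited intensities were turned here into log2(signal + 30.7), the pseudocount being the 10th percentile of all signals. After removal of 66 control probe sets, those with a mean log2 above that of a signal of 132.6, the 30th percentile, were tested. Of 12488 probe sets 10855 had 1 symbol, 396 several and 1237 none, and 10839 were matched to RefSeq by the probe table. Members and lists were chosen with earlier results of these data known, and cover symbols of the array's annotation.

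Knockout and sex comparisons used limma 3.58.1 in R 4.3.3 on the arrays of 1 tissue, with terms for genotype (3 levels) and sex (lmFit, eBayes with a mean trend). Tissue comparisons and their differences between genotypes used 1 model of all 50 arrays. Benjamini-Hochberg adjustment ran over all 8534 probe sets tested, with a threshold of 0.05. Pairs of subunits were compared by permutation (100000 resamples, or exact for 5 against 10; Python 3.11.15, scipy 1.17.1, pandas 2.3.3), for the 2 pairs with both genes on the array. The text names up to 10 genes in each direction called between wild-type tissues, the 5 of smallest p in each knockout comparison, the paired subunits, and up to 2 genes of a list. Other members are named to describe their family or because of their values. Only some of them are marked as named after their values were seen. Grik2, Htr1a, Chrm1, Htr2c and, in the sex comparison, Grin2c carry no such mark. The p-values measure the spread between samples titled biological replicates. Group labels follow the sample titles, since the design text names 1 knockout a second time in place of another group. Eif2s3y, on the Y chromosome, matched the sex in every title (lowest male 421.9, highest female 128.2). Samples that share a replicate number in both tissues did not deviate together in every genotype (correlations -0.06 to 0.19 in wild-type, 0.04 to 0.22 in S1P2-KO and -0.27 to 0.07 in S1P3-KO). The medians were 0.1, 0.12 and -0.02, against -0.01, -0.02 and 0.01 between samples of different numbers. Whether a number marks 1 mouse is not given in the sources used here. Numbers were not taken as pairs, and if they are pairs, the tissue p-values treat samples of 1 mouse as independent. The scripts were tested on simulated data. Promoter sequences come from RefSeq (GRCm38.p6).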

Additional observations from a re-analysis of the deposited data

Results flagged for a closer look

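For the 41 tested receptor genes, the 6 groups of 5 or 10 arrays were examined on the log2 scale for 1 array standing apart from the rest. Of these 246 groups, 29 had one. Chance flags about 1 in 20 groups, and genes on 1 array are not independent. On the 3 hippocampus arrays with a 3' to 5' control ratio above 1 there were 11 of these, all low. Replicate 5 of S1P3-KO was low for Gria3 (21.2, next array 555.3), Htr1a (24.6, next 337.9), Chrm1 (54.5, next 1335.2), Adra2c (336.9, next 1108.1) and Grik5 (561.1, next 3386.5). Replicate 7 of S1P2-KO was low for Grin2b (118.4, next 636.5), Htr1a (164.0, next 360.7), Chrm1 (182.8, next 1124.8) and Grik5 (2194.7, next 3432.0). Replicate 4 of wild-type was low for Chrna6 (70.2, next 194.4) and Gria3 (522.8, next 781.0). The link of the ratio with these signals was not tested.

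The other 18 lay on arrays whose ratio was not above 1. In S1P3-KO neocortex, replicate 2 was low for Gabrd (381.3, next 770.9) and Chrna6 (52.1, next 185.5) and high for Grm8 (641.5, next 491.5). In S1P3-KO hippocampus, replicate 3 was low for Grm8 (157.0, next 267.6) and replicate 1 high for Htr4 (1002.0, next 545.9). In S1P2-KO neocortex, the low arrays were replicate 7 for Grik5 (2731.3, next 3447.4), replicate 2 for Gabrg3 (20.4, next 125.9), replicate 9 for Grik1 (51.6, next 111.8) and replicate 8 for Htr3a (289.2, next 505.4), and replicate 5 was high for Grik2 (735.7, next 534.0). In S1P2-KO hippocampus, replicate 6 was low for Grin2a (84.3, next 205.3) and replicate 8 high for Htr1d (923.6, next 576.4). In wild-type neocortex, replicate 3 was low for both Grin2a (115.0, next 235.2) and Htr5b (92.0, next 189.9), replicate 9 for Gabrg1 (66.8, next 166.8) and replicate 7 for Glra1 (256.7, next 388.8). In wild-type hippocampus, replicate 5 was low for Gabrg1 (71.2, next 233.3) and replicate 3 for Htr1a (164.1, next 347.0).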

How the results depend on the processing

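The alternatives were other pseudocounts, filters and normalizations, array weights, the 3' to 5' ratio, other probe sets, fits on fewer groups, and leaving out each array. The number of receptor genes called stayed within 1.5 times the reported one except for S1P3-KO tissues, where fitting only the groups compared, on fewer arrays, called 5.0 rather than 10. No receptor gene was called in a knockout or sex comparison under any alternative run. With each gene's probe sets averaged, Gria1 minus Gria2 in neocortex was 0.38 in S1P2-KO, past the threshold, and 0.21 in S1P3-KO, where the reported value was -0.04; the cause was not tested. Leaving out each array in turn, that S1P3-KO value ranged from -0.17 to 0.04 in neocortex (above 0 at 0.02, 0.01, 0.04 and 0.02 without wild-type replicate 5 or S1P3-KO replicates 3, 4 and 5) and from -0.33 to 0.01 in hippocampus (above 0 without S1P3-KO replicate 5). Gria1 minus Gria2 ranged from 0.1 to 0.34 in S1P2-KO hippocampus. Grin2b minus Grin2a ranged from 0.80 to 1.27 in S1P3-KO neocortex, from -1.32 to -0.19 in S1P3-KO hippocampus and from 0.07 to 0.58 in S1P2-KO hippocampus. Genes called between tissues then numbered 10 to 11 in wild-type, 8 to 9 in S1P2-KO and 7 to 11 in S1P3-KO. With the replicate number as a replicate block they numbered 12 (Gria4 and Grik2 added), 10 (Htr1a added) and 11 (Grin2b added), and the knockout comparisons gave 0; the block could not be fitted for sex, which varies between numbers. Across tissues, the correlation of same-numbered samples was over 0.1 for 5 of 10 wild-type, 7 of 10 S1P2-KO and 0 of 5 S1P3-KO numbers, and the best one was with the own number for 1, 5 and 2 of them. Arrays give no read depth, and signals near background limit the dim genes.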
